A study of Mus musculus with 27 samples.

Results

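Norrin signaling and the endothelial SoxF factors were followed in retinas of mice with oxygen-induced retinopathy (OIR). The 10 genes were taken by symbol: the ligand gene Ndp, the receptor complex genes Fzd4, Lrp5 and Tspan12, the Wnt response genes Lef1, Axin2 and Apcdd1, and the transcription factor genes Sox7, Sox17 and Sox18. All 10 were found among the 40129 genes of the deposited table, and all 10 averaged 1 normalized read or more, the filter for testing. OIR pups breathed 75% oxygen from day 7 to day 12 and then room air until p14 or p17, whereas control pups (nOIR) stayed in room air throughout. All mice were wild-type (genotype WT) of the strain labelled C57BL/6, given as C57BL/6J in the study's methods, were perfused with PBS before the retina was taken, and gave 1 library each, made from 1 or 2 retinas. The groups were nOIR p14 (n = 6), OIR p14 (n = 6), nOIR p17 (n = 6) and OIR p17 (n = 8). By the study's methods nOIR p17 came from 2 litters, nOIR p14 and OIR p17 from 3 each and OIR p14 from 4. These could not be assigned to single mice here, and the tests take mice as independent. A whole retina holds few endothelial cells among many neurons and glia, and in such bulk samples fewer cells of a type and less RNA per cell cannot be told apart.

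Norrin, the product of Ndp, is secreted by Müller glia and binds the receptor Frizzled-4 on retinal endothelial cells. Frizzled-4 acts with the co-receptor LRP5 and the tetraspanin TSPAN12, and the complex stabilizes beta-catenin, which drives TCF/LEF target genes. Loss of any of these components impairs the growth of the retinal vasculature and the blood-retina barrier. SOX7, SOX17 and SOX18 form the SoxF group of transcription factors, which act in endothelial cells and direct vessel growth and arterial identity. Sox17 has been tied to norrin signaling in the retinal endothelium.

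Between 17029536 and 33593428 reads were recovered per mouse. These are reads without molecular identifiers, so PCR copies are among them. The libraries of OIR p17 mice S6, S7 and S8 stood apart from the other 5 libraries of their group. Among 14457 genes that averaged 50 normalized reads or more, 694 were lower in each of these 3 mice than in each of the other 5 and by more than 1 on the log2 scale on average, against 3 that were higher. Of the 10 genes described here, Apcdd1 belonged to this set. Over the remaining 693 genes of the set, the mean log2 level relative to nOIR p17 was -1.47 in S6, -1.94 in S7 and -1.90 in S8. The genes were chosen as low in these 3 mice against the rest of their group, so low values there follow from the choice. Other splits of the 8 mice were not counted. The same genes were more than 0.5 below nOIR p17 in nOIR p14 mice S5 (-0.73) and S6 (-1.18) and in OIR p14 mice S1 (-0.74), S3 (-0.59) and S5 (-0.55). The median exon length was 5168 bases for the genes of the set and 4393 bases for the other genes. The comparisons below were therefore also run without S6, S7 and S8 and without all 8 mice. Endothelial markers were present in every group, with a summed level of 12 markers between 8976 normalized reads in the lowest nOIR p17 mouse and 17982 in the highest OIR p17 mouse. Of 5 lens genes in the table, the summed level ranged from 4.44 to 31572 normalized reads over the 26 mice, and none was called in a comparison of OIR with nOIR mice.

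**Figure D1:**
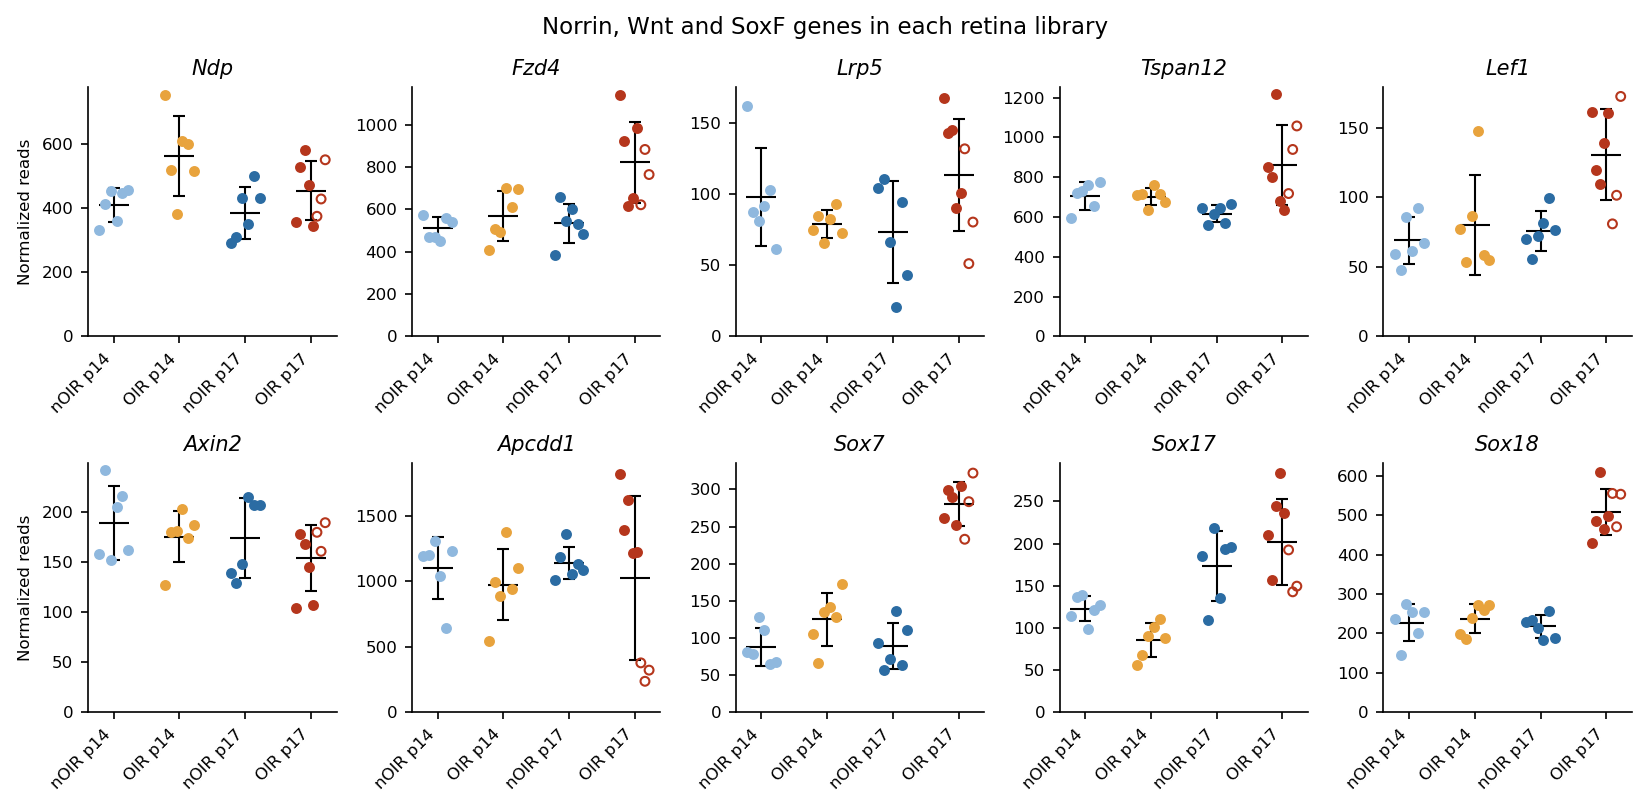
Normalized reads of the 10 genes (y axis, linear and from 0) in each mouse of the 4 groups (x axis), with the mean ± SD as bars and OIR p17 mice S6, S7 and S8 as open circles. Sox7 and Sox18 in all 8 OIR p17 mice lie above every mouse of the other groups, and Apcdd1 in the 3 open circles lies at 235 to 376 normalized reads, below every other mouse.

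The first question was how these genes differed between OIR and nOIR retinas at p17, when neovascular tufts are known to be present in this model. Of the 10, 5 (Sox7, Sox18, Lef1, Fzd4 and Tspan12) rose in OIR p17 and 0 fell, with 0 lower at an unadjusted P value below 0.05 in limma. Of all 27137 genes tested, 7.39% were called higher and 5.12% lower at an adjusted P value below 0.05. The median log2 fold change (log2FC) was 0.53 for the 10 genes, against -0.02 for the whole table of tested genes. None of the 10 had both an adjusted P value below 0.05 and a log2FC above 2, the size the study required, whereas 1.90% of all genes tested met both. These 5 genes and Lrp5 were called higher when S6, S7 and S8 were left out, with 6.29% of all genes called higher.

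Sox7 and Sox18 showed the clearest separation. For Sox7, the lowest, median and highest normalized reads were 56.7, 81.9 and 137 in nOIR p17 and 233, 287 and 322 in OIR p17. Every OIR p17 mouse thus lay above every control of its age. Sox7 rose 3.17-fold on group means, from 88.5 ± 31.0 (SD, n = 6) to 281 ± 29.8 (SD, n = 8), with a log2FC of 1.72 (SE 0.21, adjusted P = 3.33e-07). For Sox18, the corresponding values were 182, 222 and 258 in nOIR p17 and 429, 492 and 609 in OIR p17. These groups did not overlap either. Sox18 rose 2.34-fold, from 218 ± 29.1 (SD, n = 6) to 509 ± 59.3 (SD, n = 8), with a log2FC of 1.22 (SE 0.13, adjusted P = 6.08e-08). Both differences had the smallest P value that an exact two-sided permutation test allows for 8 against 6 mice (0.000333). Of all genes tested, 3.90% were higher in every OIR p17 mouse than in every nOIR p17 mouse. Without S6, S7 and S8 the log2FC was 1.72 for Sox7 and 1.19 for Sox18.

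The third SoxF gene, Sox17, ranged from 109 to 218 (median 189) in nOIR p17 and from 143 to 284 (median 201) in OIR p17. The groups overlapped between 143 and 218. Its log2FC was 0.22 (SE 0.19, adjusted P = 0.538), with a 95% confidence interval of -0.16 to 0.60, and it did not pass the test. Without S6, S7 and S8, in which Sox17 was 192, 143 and 149, the log2FC was 0.40 (adjusted P = 0.273). In the reference annotation, 16.8% of the exon bases of Sox17 overlap the gene model Gm37587 on the opposite strand, which averaged 1.83 normalized reads, and the kit does not mark strand.

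Within the norrin receptor complex, Fzd4 and Tspan12 rose. Fzd4, which encodes the norrin receptor, had a lowest, median and highest value of 386, 538 and 656 in nOIR p17 and of 617, 824 and 1139 in OIR p17. Of the 8 OIR p17 mice, 5 lay above all controls and all 8 above the control median. Its log2FC was 0.61 (SE 0.15, adjusted P = 0.00358), and the 28 fits tried all called it. Tspan12, whose product enhances norrin signaling at the receptor, was at 559, 629 and 663 in nOIR p17 and at 633, 826 and 1218 in OIR p17. Of the 8 OIR mice, 7 exceeded every control. Its log2FC was 0.45 (SE 0.11, adjusted P = 0.00566). The spread of Tspan12 over mice was 42.4 (SD, n = 6) in the controls and 200 (SD, n = 8) in OIR p17, where S3 and S8 were highest at 1218 and 1057. Lrp5, the co-receptor gene, was measured at a lower level and with a wide spread, from 21.0 to 111 (median 80.4) in nOIR p17 and from 51.2 to 168 (median 117) in OIR p17. In OIR p17, 7 of 8 mice lay above the control median, but the log2FC of 0.74 (SE 0.30, adjusted P = 0.117) did not pass the test. Lrp5 passed it when S7, the lowest OIR p17 mouse, was left out (log2FC 0.89, adjusted P = 0.0439), and when S6, S7 and S8 were left out (log2FC 0.97, adjusted P = 0.0491), but not without all 8 mice that stood apart (adjusted P = 0.0741). Over the fits with 1 mouse left out, its log2FC ranged from 0.43 to 0.90, and its adjusted P value from 0.0439 to 0.387. The ligand gene Ndp ranged from 290 to 500 (median 390) in nOIR p17 and from 343 to 581 (median 450) in OIR p17. With a log2FC of 0.24 (SE 0.15, adjusted P = 0.379) it was not called at p17.

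**Figure D2:**
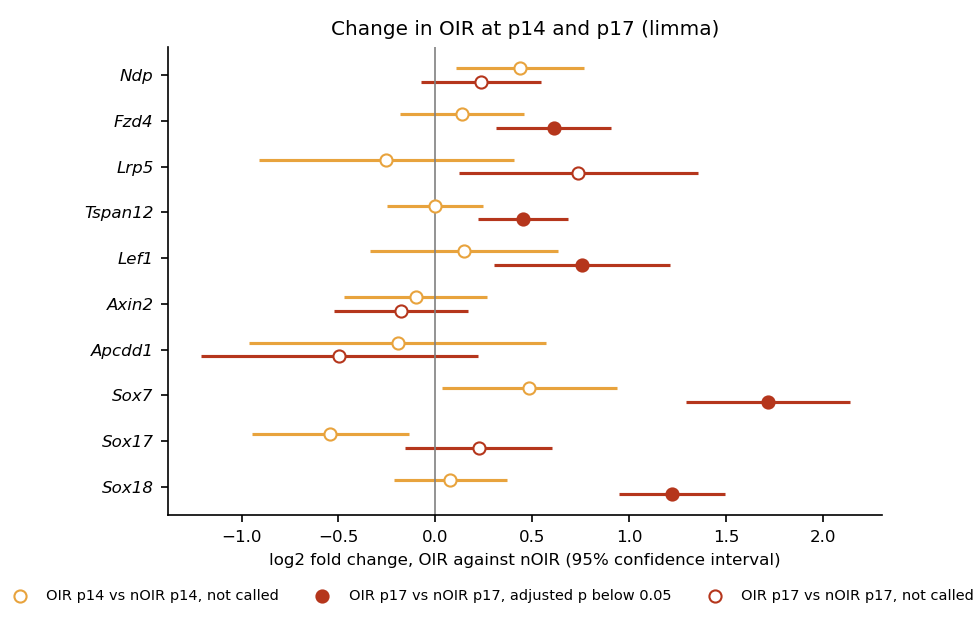
The log2 fold change of OIR against nOIR retinas (x axis) with its 95% confidence interval for each gene (y axis) at p14 (orange) and p17 (red), with filled points where the adjusted P value was below 0.05. All points at p14 are open, and the filled points at p17 run from 0.45 for Tspan12 to 1.72 for Sox7.

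The Wnt response genes did not move together at p17. Lef1, which encodes a transcription factor that binds beta-catenin, was at 55.5, 74.3 and 99.3 (lowest, median and highest) in nOIR p17 and at 80.9, 129 and 173 in OIR p17. Here 7 of the 8 OIR mice lay above all controls. Lef1 rose with a log2FC of 0.76 (SE 0.22, adjusted P = 0.0200). This call was lost without nOIR p17 mouse S2 (log2FC 0.67, adjusted P = 0.0626) and under quantile normalization (log2FC 0.56, adjusted P = 0.123). Lef1 shares 13.7% of its exon bases with the gene model Gm43352 on the opposite strand. Axin2, a negative feedback gene of the canonical pathway and a common reporter of its activity, was at 129, 178 and 215 in nOIR p17 and at 104, 165 and 190 in OIR p17. The ranges overlapped, and no OIR p17 mouse lay above the highest control. Its log2FC was -0.18 (SE 0.17, adjusted P = 0.604), with a 95% confidence interval of -0.52 to 0.17.

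Apcdd1, which encodes a membrane-bound inhibitor of Wnt signaling that is induced by norrin signaling in retinal vessels, split the OIR p17 mice. It was between 1218 and 1822 normalized reads in S1 to S5 and at 376, 235 and 320 in S6, S7 and S8. The 6 control mice ranged from 1010 to 1361 (median 1108), so the OIR p17 mice lay partly above and partly far below them. Over all 8 mice the log2FC was -0.50 (SE 0.35, adjusted P = 0.445). Without S6, S7 and S8 it was 0.34 (SE 0.18, adjusted P = 0.297), and with the 5 p14 mice that stood apart left out too its adjusted P value was 0.0519. The 5 remaining OIR p17 mice had a mean of 1454 ± 263 (SD, n = 5) against 1138 ± 125 (SD, n = 6). The direction of Apcdd1 at p17 therefore turned with the 3 libraries that stood apart, in which 693 other genes were low as well.

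**Figure D3:**
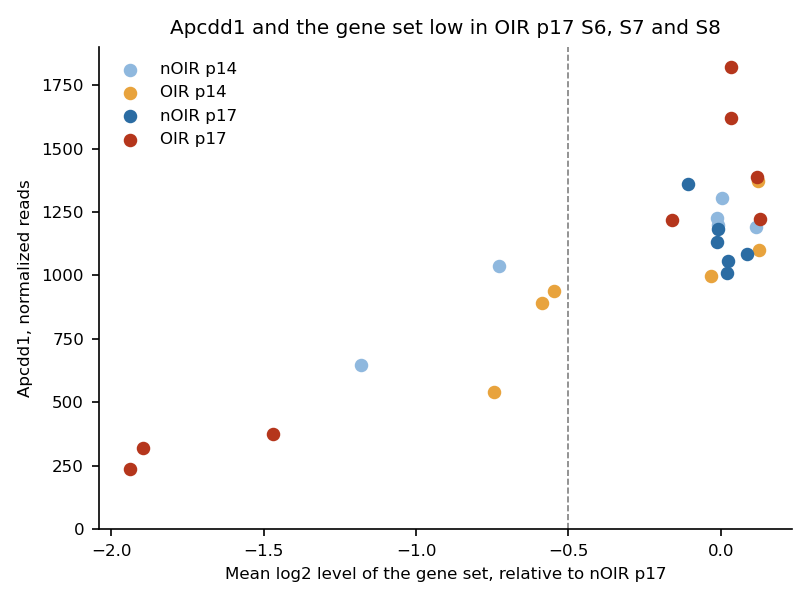
Apcdd1 in normalized reads (y axis, from 0) against the mean log2 level of the 693 genes low in OIR p17 S6, S7 and S8, relative to nOIR p17 (x axis), with 1 point per mouse coloured by group and a dashed line at -0.5. The 3 OIR p17 mice at the lower left are S6, S7 and S8, and the 5 other mice left of the line belong to the p14 groups. The 693 genes were chosen as low in S6, S7 and S8 and Apcdd1 met the same rule, so the place of these 3 points follows from the choice.

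Promoter windows of the members that rose at p17 are shown because these genes were called together, as far as the reference table lists them. The windows cover the 250 bases before the start site on the gene's strand in RefSeq annotation of mouse build GRCm38.p6. Fzd4 lies on the plus strand (chr7:89404116-89404365), Tspan12 on the minus strand (chr6:21852534-21852783), and for Lef1 on the plus strand 2 of 4 listed starts are given, one near its annotated start (chr3:131112541-131112790) and one within the gene (chr3:131156044-131156293). Capitals mark matches to CTTTGA (the core of TCF/LEF sites), ACAAT (a Sox core) or ACGTG (the core of hypoxia response elements) on either strand.
Fzd4: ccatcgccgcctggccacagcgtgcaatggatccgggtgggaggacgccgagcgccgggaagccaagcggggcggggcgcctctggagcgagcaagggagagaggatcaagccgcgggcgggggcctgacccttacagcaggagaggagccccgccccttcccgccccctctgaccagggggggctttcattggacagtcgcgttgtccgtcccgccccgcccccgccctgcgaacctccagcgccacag
Tspan12: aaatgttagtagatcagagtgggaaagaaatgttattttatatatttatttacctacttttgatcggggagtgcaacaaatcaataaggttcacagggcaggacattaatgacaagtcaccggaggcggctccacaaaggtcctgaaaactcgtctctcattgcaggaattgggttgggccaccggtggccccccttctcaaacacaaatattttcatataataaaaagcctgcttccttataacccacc
Lef1, start near the annotated start: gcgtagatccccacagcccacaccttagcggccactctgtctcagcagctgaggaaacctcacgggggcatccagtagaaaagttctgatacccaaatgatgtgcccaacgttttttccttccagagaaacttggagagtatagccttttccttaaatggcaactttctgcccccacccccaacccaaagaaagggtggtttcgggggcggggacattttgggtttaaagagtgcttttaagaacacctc
Lef1, start within the gene: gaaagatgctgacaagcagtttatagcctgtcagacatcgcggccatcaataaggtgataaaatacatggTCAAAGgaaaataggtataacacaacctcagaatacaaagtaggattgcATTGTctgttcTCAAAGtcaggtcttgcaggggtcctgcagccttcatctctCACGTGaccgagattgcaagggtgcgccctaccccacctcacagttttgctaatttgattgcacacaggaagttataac
The windows of Fzd4 and Tspan12 and the first of Lef1 held none of the 3 letter strings, nor did the other 2 listed windows of Lef1. The second window of Lef1, whose start lies 42438 bases from the nearest start in the GENCODE M21 annotation, held 2 matches to CTTTGA, 1 to ACAAT and 2 to ACGTG, the last being the same CACGTG read on both strands. Of all 32851 promoter windows of this length, 13.8% held CTTTGA, 27.7% held ACAAT and 16.6% held ACGTG. Windows of Ndp and Axin2 held no match either. These are descriptions of 250 bases and say nothing of sites outside them. Fzd4 had a GC content of 72.8% in this window and Tspan12 of 42%.

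At p14, 2 days after the return to room air, none of the 10 genes passed the test. By limma, 0 were called in either direction at an adjusted P value below 0.05, against 3.18% of all genes called higher and 2.91% lower. An unadjusted P value below 0.05 was found for 3 of the 10. The share of all genes at that looser threshold was not counted, so the 3 have no share to stand beside. edgeR and DESeq2 also called 0 of the 10. The median log2FC was 0.04 for the members and 0.02 for every gene tested. The 3 genes were Ndp, Sox17 and Sox7. Ndp ranged from 330 to 455 (median 430) in nOIR p14 and from 381 to 752 (median 558) in OIR p14, where 5 of the 6 mice lay above all controls. Its log2FC was 0.44 (SE 0.16, unadjusted P = 0.0116, adjusted P = 0.124, exact permutation P = 0.0238). Without OIR p14 mouse S3, the lowest of its group at 381, Ndp was called (log2FC 0.54, adjusted P = 0.0418). Sox17 ranged from 99.0 to 139 (median 124) in nOIR p14 and from 55.8 to 111 (median 89.0) in OIR p14, and all 6 OIR mice lay below the control median. Its log2FC was -0.54 (SE 0.20, unadjusted P = 0.0111, adjusted P = 0.121, exact permutation P = 0.00649). With the excluded nOIR p14 mouse S4, in which Sox17 was 202, the log2FC was -0.64 and passed the test (adjusted P = 0.0481). Sox7 ranged from 64.1 to 127 (median 79.7) in nOIR p14 and from 66.6 to 173 (median 131) in OIR p14, with a log2FC of 0.49 (SE 0.22, adjusted P = 0.248). Sox18, which separated the groups at p17, had medians of 245 and 249 at p14 and a log2FC of 0.08 (SE 0.14, adjusted P = 0.875). Tspan12 had means of 705 ± 68.4 and 702 ± 43.0 (SD, n = 6 each), and its 95% confidence interval of -0.25 to 0.25 bounds the difference at this age. The other members, Fzd4 (log2FC 0.14), Lrp5 (-0.25), Lef1 (0.15), Axin2 (-0.10) and Apcdd1 (-0.19), had adjusted P values between 0.751 and 0.882.

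Between p14 and p17 within OIR retinas, 5 members rose: Sox17, Sox7, Sox18, Lef1 and Fzd4. None fell, against 4.11% of all genes called higher and 1.81% lower. Sox17 had a log2FC of 1.23 (SE 0.19, adjusted P = 5.87e-05), from 85.6 ± 20.6 (SD, n = 6) to 202 ± 51.1 (SD, n = 8). Its lowest OIR p17 mouse, at 143, lay above its highest OIR p14 mouse, at 111. For Sox7 the log2FC was 1.21 (SE 0.21, adjusted P = 0.000262), and for Sox18 it was 1.10 (SE 0.13, adjusted P = 2.49e-06). All 3 SoxF genes thus separated the OIR ages without overlap, as did 1.41% of all genes in the higher direction. In the same comparison 11 of 12 endothelial marker genes rose and 0 fell (median log2FC 1.25). Sums over the list were 9698 to 15011 normalized reads in OIR p14 and 12923 to 17982 in OIR p17. Kdr, a large part of these sums, averaged 6641 in OIR p14 and 5688 in OIR p17. All 7 pericyte markers rose too (median log2FC 2.36), with sums of 1497 to 3246 and 8719 to 12189, as did 4 of 5 blood genes. Without S6, S7 and S8 the counts were the same, with 2.41% of all genes called higher. Without all 8 mice that stood apart 9 endothelial, 5 pericyte and 4 blood genes rose, with 1.51% of all genes called higher. The part of these markers in the values of the SoxF genes was not tested. Lef1 (log2FC 0.76, SE 0.22, adjusted P = 0.0362) and Fzd4 (log2FC 0.52, SE 0.15, adjusted P = 0.0262) were called less firmly, in 15 and 19 of 28 fits. In a fit of the OIR groups alone both lost the call at an unchanged log2FC of 0.76 and 0.52 (adjusted P = 0.111 and 0.0926). Both also lost it without all 8 mice that stood apart, with log2FC 0.84 for Lef1 and 0.42 for Fzd4 (adjusted P = 0.194 and 0.356). Lef1 was not called in edgeR either (log2FC 0.71, adjusted P = 0.0600), nor under quantile normalization (log2FC 0.68, adjusted P = 0.0804). Leaving out a single mouse ended both calls for OIR p14 S1 or S2 and for OIR p17 S1 or S5. The call of Fzd4 also ended without OIR p14 S3 or OIR p17 S2, and that of Lef1 without OIR p14 S5 or S6 or OIR p17 S4 or S8. Ndp, in contrast, had a mean of 562 ± 124 (SD, n = 6) in OIR p14 and 454 ± 92.6 (SD, n = 8) in OIR p17, a log2FC of -0.30 that did not pass the test (adjusted P = 0.287). In nOIR retinas 0 of the 10 were called between p14 and p17 by limma, edgeR or DESeq2, against 0.317% of all genes by limma. There, 1 of the 10, Sox17, had an unadjusted P value below 0.05 by limma (log2FC 0.46, adjusted P = 0.572). Its mean was 123 ± 14.8 in nOIR p14 and 173 ± 41.5 in nOIR p17 (SD, n = 6 each).

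The OIR effect was next compared between the ages in the same fit. The effect at p17 exceeded that at p14 for Sox18 by 1.15 (SE 0.20, adjusted P = 0.000793) and for Sox7 by 1.23 (SE 0.30, adjusted P = 0.0280) on the log2 scale. Of all genes tested, 1.43% had a larger and 0.147% a smaller effect at p17 by this test. The effect also exceeded that at p14 for 9 of 12 endothelial markers (median difference 1.52) and 6 of 7 pericyte markers (median 2.20), and was smaller for 0 of either. Without S6, S7 and S8 these were 9 and 5, against 0.880% of all genes with a larger effect at p17. Without the 8 mice they were 7 and 4, against 0.455% of all genes. Their part in the differences of Sox18 and Sox7 was not tested. The difference for Sox18 was between 1.08 and 1.27 in all 39 fits and was called in 38 of them, the exception being the fit without all 8 mice that stood apart (adjusted P = 0.0763). That for Sox7 was between 1.06 and 1.37 and was called in 29 of the 39. It was lost under quantile normalization (1.17, adjusted P = 0.0531), without S6, S7 and S8 (1.24, adjusted P = 0.0797), without all 8 mice that stood apart (1.27, adjusted P = 0.254) and without any one of nOIR p14 S3 or S5, nOIR p17 S2, S3 or S5, or OIR p14 S2 (adjusted P between 0.0506 and 0.0625). Sox17 had a difference of 0.76 (SE 0.27, adjusted P = 0.221), being on the low side in OIR p14 and on the high side in OIR p17, but this did not pass the test. Differences for Lrp5 (0.99, adjusted P = 0.398), Lef1 (0.61, 0.526), Fzd4 (0.47, 0.408) and Tspan12 (0.46, 0.236) did not pass either.

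Because most of these genes are known to act in endothelial cells, their levels were set beside a list of 12 endothelial marker genes in the same mice. Of the 12 markers, 10 rose in OIR p17 and 0 fell, with a median log2FC of 1.46, and the counts were the same without S6, S7 and S8. Summed over the list, the markers ranged from 8976 to 10758 normalized reads in nOIR p17 and from 12923 to 17982 in OIR p17. A large part of these sums was Kdr, which averaged 4899 in nOIR p17 and 5688 in OIR p17. Pericyte markers also rose at p17 (6 of 7, 0 fell), as did 3 of 5 microglial and 4 of 5 blood genes, and 4 of 12 neuronal and photoreceptor markers fell. The sums of the blood genes were 180 to 1074 in nOIR p17 and 1136 to 15114 in OIR p17. For pericyte markers the sums were 2951 to 3671 and 8719 to 12189, and for microglial markers they were 820 to 1023 and 1481 to 2254. The part of these shifts in the values of single members was not tested.

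Relative to the endothelial list, 6 of the 9 members compared with it were lower in OIR p17 than in nOIR p17, namely Tspan12, Axin2, Fzd4, Sox17, Apcdd1 and Lef1. Because the markers rose, most genes were lower on this measure: 77.4% of all genes tested were lower at an unadjusted exact permutation P value below 0.05, the rule by which the same 6 members are counted. The median difference over all genes was -1.33, and 50.4% lay below the controls without overlap. A lower value here is thus no feature of the 6 members, and it is given only to set them beside the markers. The measure was the log2 level of the gene minus the mean log2 level of the 12 markers, compared by an exact two-sided permutation test with adjustment over 20 tests. For Sox18 it ranged from -1.05 to -0.45 in OIR p17 and from -0.83 to -0.47 in nOIR p17 and differed by -0.08 between OIR p17 and nOIR p17 (adjusted P = 0.518), and for Sox7 by 0.41 (adjusted P = 0.0975). With the list median in place of the mean, Sox18 was lower in OIR p17 (-0.25, adjusted P = 0.0333). Sox17 was lower relative to the list (-1.08, adjusted P = 0.00866). The values were also lower for Fzd4 (-0.69, adjusted P = 0.00866) and Tspan12 (-0.85, adjusted P = 0.00333), although both had risen in normalized reads. Axin2 was lower as well (-1.48, adjusted P = 0.00333), and no OIR p17 mouse overlapped the controls. Apcdd1 (-1.80, adjusted P = 0.00888) also did not overlap the controls, and without S6, S7 and S8 its difference was -0.96 (adjusted P = 0.0108). Lef1 was lower (-0.55, adjusted P = 0.0450), which was lost without S6, S7 and S8 (-0.44, adjusted P = 0.0866). Lrp5 (-0.57, adjusted P = 0.244) did not pass. At p14 the one member that passed against the endothelial list was Sox17 (-0.45, adjusted P = 0.0309), against 3.33% of all genes lower at an unadjusted P value below 0.05. This was lost with the list median (-0.41, adjusted P = 0.0529). Without the 8 mice that stood apart the difference was -0.59 (adjusted P = 0.0816). There 3 OIR p14 and 4 nOIR p14 mice were left, too few for the exact test to give a small P value, so this missed threshold decides nothing. Fzd4 at p14 passed with the list median only (0.27, adjusted P = 0.0379).

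**Figure D4:**
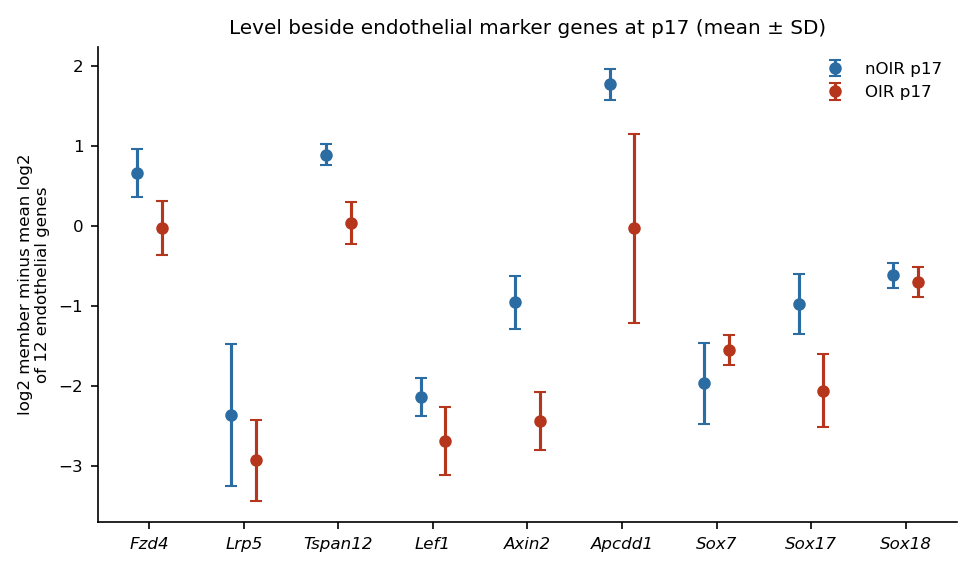
The log2 level of 9 genes minus the mean log2 level of 12 endothelial marker genes (y axis), as mean ± SD over nOIR p17 (blue, n = 6) and OIR p17 (red, n = 8) mice. Sox18 and Sox7 have overlapping error bars, and Axin2, Tspan12 and Sox17 are lower in OIR p17, as 77.4% of all genes were on this measure.

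Ndp, which Müller glia are known to express, was set beside 10 Müller glia markers, of which 2 rose and 5 fell at each age. Without the 8 mice that stood apart 2 rose and 2 fell at p14, with 1.19% of all genes called higher and 0.829% lower. The p17 counts were the same. Ndp was higher relative to these markers at p14 (0.59, adjusted P = 0.00866), and no OIR p14 mouse overlapped a control, as for 3.70% of all genes. The median difference over all genes on this measure was 0.17. With the list median the difference of Ndp was 0.18 (adjusted P = 0.260), so the call was lost. Without the 8 mice that stood apart it was 0.57 (adjusted P = 0.0816). That comparison left 3 OIR p14 and 4 nOIR p14 mice, too few for the exact test to give a small P value. Its missed threshold therefore decides nothing. At p17 the difference was 0.30 with the mean (adjusted P = 0.0886) and -0.31 with the median (adjusted P = 0.115), so that neither a direction nor a difference was settled.

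Levels of different members can be compared only per exon length. In nOIR p14, Tspan12 and Ndp stood highest, at 213 ± 20.7 and 211 ± 27.6 normalized reads per kb of exon (SD, n = 6), a difference smaller than the spread of either. Sox18 followed at 140 ± 29.0, then Apcdd1 at 85.4 ± 18.6 and Fzd4 at 76.0 ± 7.89, which did not differ beyond their spread. Axin2 (34.4 ± 6.72), Sox7 (26.7 ± 7.68) and Sox17 (25.7 ± 3.11) formed a lower tier of overlapping levels. Lrp5 (10.1 ± 3.54) and Lef1 (7.85 ± 1.94) were lowest. In nOIR p17 the first 5 were the same genes, with Ndp at 199 and Tspan12 at 186. Sox17 (36.2 ± 8.70), Axin2 (31.7 ± 7.20) and Sox7 (26.8 ± 9.38) followed with overlapping ranges (SD, n = 6). In OIR p14 Ndp led at 290 ± 63.9, and Sox17 was at 17.9 ± 4.32, below Axin2 at 31.9 ± 4.64. In OIR p17 Sox18 had the highest mean at 314 ± 36.6, before Tspan12 (260 ± 60.5) and Ndp (234 ± 47.8), with overlapping ranges, and Sox7 was at 85.1 ± 9.03 (SD, n = 8). Apcdd1 has no single place in that order, since its level was 94.5 to 141 normalized reads per kb in S1 to S5 and 18.2 to 29.2 in S6, S7 and S8.

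The wider pathway was described from lists of other genes. The counts of these lists stand beside 7.39% of all genes called higher and 5.12% lower at p17, and 3.18% and 2.91% at p14. Without S6, S7 and S8 the p17 shares were 6.29% and 4.06%. Without the 8 mice that stood apart the p14 shares were 1.19% and 0.829%, with 3 OIR p14 and 4 nOIR p14 mice left. A threshold missed at p14 in that smaller fit therefore decides nothing. Of 18 further Wnt and norrin-type receptors, 1 rose and 2 fell at p17, with a median log2FC of -0.31 over the list, which was 0.02 without S6, S7 and S8, and -0.02 over all genes. Fzd1 rose (log2FC 0.79, adjusted P = 0.00451), and Fzd9 (log2FC -1.50, adjusted P = 0.00339) and the R-spondin receptor gene Lgr5 (log2FC -0.45, adjusted P = 0.0155) fell. Without S6, S7 and S8, of these 3 genes Fzd9 remained called (log2FC -1.27, adjusted P = 0.0305), and Fzd6 was called higher (log2FC 0.69, adjusted P = 0.0301). At p14 Ror2, a receptor of non-canonical Wnt ligands, rose (log2FC 1.70, adjusted P = 0.0306), Fzd9 fell (log2FC -1.26, adjusted P = 0.0417), and Reck, a partner of WNT7 recognition, did not pass (log2FC -0.41, adjusted P = 0.226). Without the 8 mice that stood apart the call of Fzd9 at p14 ended (adjusted P = 0.289) and that of Ror2 held (adjusted P = 0.0424).

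Among 22 Wnt ligands and R-spondins tested, 0 rose and 2 fell at p17, and 2 were higher at an unadjusted P value below 0.05 in limma. Wnt9b fell from 265 to 133 normalized reads on group means (log2FC -1.01, adjusted P = 7.48e-05), and Rspo4 from 103 to 63.8 (log2FC -0.75, adjusted P = 0.0253). Wnt7b, a ligand of brain endothelium, had means of 5.39 and 23.9 and missed the threshold (log2FC 2.30, adjusted P = 0.0529). At p14 0 rose and 3 fell, namely Wnt9b (log2FC -0.87, adjusted P = 0.00262), Wnt11 (log2FC -0.97, adjusted P = 0.0188) and Rspo4 (log2FC -0.83, adjusted P = 0.0358). None of these 3 was called without the 8 mice that stood apart, a fit that called 0.829% of all genes lower at p14. Of 13 secreted inhibitors, 1 rose and 2 fell at p17. Dkk2 rose (log2FC 2.02, adjusted P = 0.000856), and Frzb (log2FC -0.50, adjusted P = 0.00310) and Dkk3 (log2FC -0.32, adjusted P = 0.00440) fell. Dkk3 is also a Müller glia marker and is on that list too. At p14 Cthrc1 (log2FC -0.67, adjusted P = 0.0242) and Frzb (log2FC -0.45, adjusted P = 0.0277) fell, and Sostdc1 did not pass (log2FC -0.54, adjusted P = 0.140). Both p14 calls ended without the 8 mice (adjusted P = 0.0536 for Cthrc1 and 0.174 for Frzb).

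The 20 genes of the beta-catenin machinery, such as Apc and Gsk3a, held 1 call over both ages. At p14 0 of 20 were called by limma, with 1 higher and 1 lower at an unadjusted P value below 0.05 and a median log2FC of -0.04, and the smallest adjusted P values were those of Csnk1a1 (0.237), Tle1 (0.258) and Tcf7l1 (0.524). At p17 Gsk3a fell (log2FC -0.78, adjusted P = 0.0175), but without S6, S7 and S8 its log2FC was -0.30 (adjusted P = 0.230), and Apc (log2FC -0.25, adjusted P = 0.162) and Tle1 (log2FC -0.35, adjusted P = 0.187) did not pass. Of 9 further feedback and target genes, Myc and Ccnd1 rose at both ages and 0 fell. At p17 the log2FC was 2.41 for Myc (adjusted P = 1.17e-08) and 1.35 for Ccnd1 (adjusted P = 5.73e-08), and at p14 it was 0.94 (adjusted P = 0.0242) and 0.76 (adjusted P = 0.00215). Without the 8 mice the p14 call of Myc ended (adjusted P = 0.119) and that of Ccnd1 held (adjusted P = 0.0326). Both genes respond to many growth signals besides Wnt. Tnfrsf19 at p14 (log2FC -0.60, adjusted P = 0.0947) and Bmp4 at p17 (log2FC -0.79, adjusted P = 0.117) did not pass.

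Of 15 barrier genes that beta-catenin signaling is known to regulate in endothelium, 8 rose and 1 fell at p17, and the counts were the same without S6, S7 and S8. Plvap, the gene of fenestral diaphragms that marks leaky vessels, rose most firmly, from 135 to 558 normalized reads on group means (log2FC 2.03, adjusted P = 3.28e-11). Slc7a5 (log2FC 0.66, adjusted P = 7.83e-07), an amino acid transporter gene, and Slc2a1 (log2FC 0.73, adjusted P = 1.71e-06), the glucose transporter gene, followed. Slco1c1, a thyroid hormone transporter gene of barrier endothelium, fell (log2FC -1.28, adjusted P = 0.000182). At p14 2 of the 15 rose and 3 fell. Plvap rose (log2FC 1.37, adjusted P = 8.49e-07), whereas Slco1c1 (log2FC -1.62, adjusted P = 6.47e-05) and the tight junction gene Cldn5 (log2FC -0.83, adjusted P = 0.000350) fell. Without the 8 mice 1 rose and 1 fell at p14, Plvap and Slco1c1, and Cldn5 was not called (adjusted P = 0.0834). Pericyte markers moved in the same comparison: 3 of 7 fell at p14 and 0 rose (median log2FC -1.10), with 3 lower also without the 8 mice. Kcnj8 fell from 282 to 90.1 normalized reads on group means (log2FC -1.72, adjusted P = 4.37e-07), Abcc9 from 277 to 99.5 (log2FC -1.47, adjusted P = 4.19e-06) and Rgs5 from 2180 to 1046 (log2FC -1.10, adjusted P = 1.75e-05). Of the 12 endothelial markers 2 rose and 0 fell at p14 by limma (median -0.11, 3 with a lower level at an unadjusted P below 0.05), and neither of the 2 was called without the 8 mice. The part of pericyte or endothelial content in the barrier genes was not tested. At p17 Cldn5 rose (log2FC 0.89, adjusted P = 1.70e-05). The 8 genes that rose at p17 thus include both Plvap and Cldn5, so their count gives no single direction for the barrier.

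Of 16 genes tied to SoxF factors in endothelium as partners or targets, 9 rose and 1 fell at p17. Nrp1 (log2FC 1.08, adjusted P = 3.58e-10), the Notch ligand gene Dll4 (log2FC 2.08, adjusted P = 2.74e-09) and the ETS factor gene Fli1 (log2FC 1.98, adjusted P = 5.11e-09) had the smallest adjusted P values. Of the 9, Erg, Robo4 and Cdh5 are on the endothelial list too, and Cldn5 is on the barrier list. Endothelial markers rose in the same comparison (10 of 12, 0 fell), and their part in these 9 genes was not tested. Prox1 fell (log2FC -0.49, adjusted P = 0.00471), and this was not called without S6, S7 and S8 (log2FC -0.36, adjusted P = 0.0532). Prox1 is known to be expressed by retinal interneurons as well. At p14 Dll4 rose (log2FC 0.90, adjusted P = 0.00531), and Cldn5 and Vcam1 (log2FC -0.57, adjusted P = 0.0152) fell. Without the 8 mice Dll4 held (adjusted P = 0.00876), and Vcam1 was lost like Cldn5 (adjusted P = 0.376). Of 15 other Sox genes tested, 3 rose and 1 fell at p17. Sox9, a factor of Müller glia, rose (log2FC 0.98, adjusted P = 2.46e-05), as did Sox11 (log2FC 0.74, adjusted P = 0.00292) and the scarcely detected Sox15 (log2FC 1.98, adjusted P = 0.00701, means of 2.21 and 12.1). Sox5 fell (log2FC -0.44, adjusted P = 0.0127), which was not called without S6, S7 and S8 (log2FC -0.36, adjusted P = 0.0884). At p14 0 of these 15 were called by limma, with 1 at an unadjusted P value below 0.05. Sox30 (log2FC 1.82, adjusted P = 0.104) and Sox9 (log2FC 0.29, adjusted P = 0.397) were among the nearest, with Sox1 (adjusted P = 0.298), which was at 0 in all nOIR p14 mice and averaged 2.84 in OIR p14. In the fit without OIR p17 S6, S7 and S8, Sox30 was called (adjusted P = 0.0304).

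For each member, the 3 genes with the most similar pattern over the 26 mice were sought among 14456 genes averaging 50 normalized reads or more. Likeness was the root mean square difference of log2 values after each gene was centred on its mean. Sox18 was closest to Cald1 (0.24), Egfl7 (0.24) and Serpine2 (0.26), all 3 of which rose at p17. Egfl7, a gene of endothelial cells, is on the endothelial list. Sox7 was closest to Msrb3 (0.33), the arterial connexin gene Gja4 (0.38) and F11r (0.38), and Sox17 to Nagpa (0.38), Ttc39c (0.39) and Slc9a3r2 (0.39). The genes nearest to Fzd4 were Ece1 (0.23), Synm (0.24) and Ano6 (0.24), and those nearest to Tspan12 were Actr3 (0.15), Plpp1 (0.15) and Cpq (0.16). Ndp was closest to Glo1 (0.20), Lap3 (0.22) and Pes1 (0.22), and Lrp5, with its wide spread, to Fmnl3 (0.43), Midn (0.47) and Slc26a8 (0.47). Lef1 was nearest to Fstl1 (0.35), Swap70 (0.36) and Slc2a1 (0.36), and Axin2 to Lrrtm1 (0.22), Bdh1 (0.23) and Lrrc28 (0.23). Apcdd1 was nearest to Pard6b (0.23), Zfp651 (0.23) and Inpp5a (0.24). All of these belong to the 693 genes chosen as low in OIR p17 S6, S7 and S8, a rule that Apcdd1 met too. Small values partly reflect small spread, so they do not rank the members by how close their neighbours are.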

How the data were processed

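Total retinal RNA of each mouse was amplified with a low-input SMARTer v4 kit, which does not mark strand, and sequenced. Per the labels and the study's methods, the authors checked reads with FastQC 0.73, aligned them with STAR 2.7.8a, counted them on genes of GENCODE M28 (GRCm39) with featureCounts 2.0.1 and normalized them with DESeq2 1.34 in R 4.0.3. The deposited signal is normalized reads, that is counts divided by 1 size factor per mouse; whole reads came back from 100% of values (tolerance 0.01). The deposited group means, log2 fold changes and p-values of the authors' own comparisons were not used. Mouse S4 of nOIR p14 was left out, as in the study, for its lens genes.

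Limma 3.58.1 (lmFit, eBayes with trend, R 4.3.3) was fitted to log2(normalized reads + 1) of 26 mice in 4 groups, for the 27137 genes with a mean of at least 1, with Benjamini-Hochberg adjustment over all of them. Fold changes are on this scale, which understates those of low genes. Single members were also tested by exact permutation (Python 3.11.15, numpy 2.4.6, pandas 2.3.3). On simulated data for OIR p17 against nOIR p17 over 27137 genes, limma recovered 93.5% of 200 genes changed by 1 on the log2 scale, with 14 false calls. Alternatives were pseudocounts of 0.1 and 5, no filter or a mean of at least 10, S4 included, the compared groups alone, a block for the S number, rescaling to equal totals, quantile normalization, edgeR 4.0.16 and DESeq2 1.42.0 on recovered reads, the list median, and leaving out each mouse. The fits without the libraries that stood apart were added after seeing the data. Members and gene lists were chosen with earlier results of these data known. Named were the 10 members, for each its 3 most similar genes, and from each pathway list the 3 genes with the smallest adjusted P value at each age; Cldn5, Slco1c1, Prox1 and Sox5 at p17, Fzd6, and genes shared between lists were named after their values were seen. Exon lengths and overlaps are from GENCODE M21 (GRCm38), another build than the authors'. Mice are separate animals, and no 2 libraries were copies.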

Additional observations from a re-analysis of the deposited data

Results flagged for a closer look

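The values below stood out by rules applied to every member. Lef1 in OIR p14 mouse S4 was 148.1 normalized reads, far above the other 5 mice of its group, which lay between 53.7 and 86.7. Axin2 in OIR p14 mouse S1 was 127.5, below the 5 others at 175 to 203. These were 2 of 40 groups examined, and chance flags about 1 in 20. Mouse S1 was also the lowest of its group for Apcdd1 (542), Fzd4 (410) and Sox17 (55.8) and the highest for Ndp (752).

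The OIR effect differed between the ages for Sox18, by 1.146 on the log2 scale, and for Sox7, by 1.232, by the contrast within the fit. Both were larger at p17.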

How the results depend on the processing

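The 5 calls at p17 held in all 28 fits for Sox7, Sox18, Fzd4 and Tspan12 and in 26 for Lef1, and no alternative called a member lower there. Leaving out 1 mouse at a time gave 4 to 6 members called higher at p17, 0 to 1 at p14, 3 to 5 for OIR p17 against OIR p14 and 1 to 2 for the difference of effects. With S4 included, 1 member (Sox17) was called lower at p14. For OIR p17 against OIR p14, 3 members were called in place of 5 with the compared groups alone, with the replicate block and without the 8 mice that stood apart. For the difference of effects, 1 was called in place of 2 with the replicate block, under quantile normalization and without S6, S7 and S8, and 0 without the 8 mice, where fewer mice were fitted. Values that changed sign were mostly near 0, and the cause was not tested. At p14, Tspan12 became 0.0303 with S4, 0.0341 with the block, 0.0414 with equal totals, 0.0111 under quantile normalization and 0.0335 without the 8 mice, and Axin2 became 0.11 without the 8 mice. For nOIR p17 against nOIR p14, Fzd4 became -0.0437 with S4, Apcdd1 -0.14 with the block and -0.12 without the 8 mice, and Sox7 0.0014 under quantile normalization, 0.0096 in edgeR and 0.0040 in DESeq2. Apcdd1 at p17 became 0.34 without S6, S7 and S8 or the 8 mice. For OIR p17 against OIR p14, Apcdd1 became 0.12 with the block, 0.0745 in edgeR, 0.0725 in DESeq2, 0.61 without S6, S7 and S8 and 0.32 without the 8 mice. For the difference of effects it became 0.26, 0.0220, 0.0244, 0.54 and 0.44 in the same order. Relative to the lists, Ndp at p17 became -0.31 with the median, and Axin2 at p14 became 0.0328 with the median and 0.13 without the 8 mice. When single mice were left out, values that changed sign ranged at p14 from -0.0514 to 0.0264 for Tspan12, from -0.0472 to 0.24 for Lef1 and from -0.0435 to 0.14 for Sox18. In nOIR p17 against nOIR p14 they ranged from -0.0136 to 0.14 for Fzd4, from -0.0691 to 0.13 for Apcdd1, from -0.16 to 0.0975 for Sox7 and from -0.17 to 0.0138 for Sox18, and in OIR p17 against OIR p14 from -0.39 to 0.0286 for Apcdd1.

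The S numbers did not pair the mice: deviations of same-numbered mice correlated with a median of 0.014 (34 pairs, from -0.23 to 0.33), against -0.003 for other pairs. With the replicate block Lrp5 at p17 was called (0.93, adjusted P = 0.0190), and not called were Fzd4 and Lef1 for OIR p17 against OIR p14 (adjusted P = 0.0875 and 0.0677) and Sox7 for the difference of effects (1.31, adjusted P = 0.0546). Counts over all genes moved by over 1.5 times in some fits. They went from 86 to 187 (compared groups) and 236 (DESeq2) for nOIR p17 against nOIR p14, and to 34 and 46 without nOIR p14 S3 and nOIR p17 S4. From 1605 they went to 1018 (compared groups), 915 (without S6, S7 and S8) and 570 (without the 8 mice) for OIR p17 against OIR p14. From 429 they went to 269 (block), 690 (DESeq2), 257 and 132 for the difference of effects, and at p14 from 1652 to 545 without the 8 mice. The largest standard errors at p17 were those of Apcdd1 (0.35), whose OIR p17 mice split, and of Lrp5 (0.30), the member with the lowest normalized reads beside Lef1.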
